A study of Mus musculus with 19 samples.

Results

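Mitosis is carried out by a set of genes that most dividing cells switch on together late in the cell cycle, and 46 of them are described here in progenitor cells and tumors of the mouse cerebellum. They were chosen by symbol: the kinases, cyclins and phosphatases of mitotic entry, the spindle checkpoint, the kinetochore, the chromosomal passenger complex, the spindle motors and cytokinesis factors, and the proteins that shape mitotic chromosomes. Of these, 45 were measured, among 18193 genes with a value on the arrays, and all 45 were bright enough to be tested, among 12148 genes tested. The cyclin gene Ccnb1 is not analysed here, because no probe set carries its symbol in the annotation used. Between progenitors, 44 of the 45 genes stood lower in Nestin-expressing progenitors than in granule neuron progenitors, the phosphatase gene Cdc25b stood higher, and the tumors of both origins differed in 8 of 45. Over all genes tested, 39.9% were lower in the former progenitors, and 23.6% differed between the tumors.

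A cell enters mitosis when the kinase Cdk1, bound to a cyclin, is freed of inhibitory phosphates by Cdc25 phosphatases. Kinetochores then tie chromosomes to spindle microtubules, and a checkpoint holds back the anaphase-promoting complex until every chromosome is attached. Many of these genes carry in their promoters a CCAAT box and an element called CHR. Through the CHR they are repressed in resting cells and released late in the cycle. In the newborn cerebellum, granule neuron progenitors divide in the external granule layer under Sonic hedgehog, and loss of Ptch1, the receptor that restrains this signal, gives rise to medulloblastoma.

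Expression was measured on 19 Affymetrix Mouse430+2 arrays in 5 groups, all labelled C57BL/6 and all taken straight from cerebellum. The labels state that the cells were not cultured or treated before their RNA was extracted. NEPs (4 arrays) are Nestin+ neuronal progenitors, GNPs (4 arrays) are Math1+ neuronal progenitors, and NSCs (3 arrays, here numbered 1, 2 and 6) are CD133+, Lin- cerebellar progenitors. NEP tumors (4 arrays) come from Nestin-CreERT2/Ptch1C/C mice and GNP tumors (4 arrays) from Math1-CreERT2/Ptch1C/C mice, so both tumor groups share the Ptch1C/C allele and differ in the promoter that drives CreERT2. Ages, pooling, treatment of the mice and the agent and time of Cre activation are not given in the sources used here. No label says that arrays of the same group come from separate animals, so each p-value measures the spread between arrays only, and the number of arrays limits the precision.

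Values are log2 probe set signals, with 1 probe set per gene. They compare groups for the same gene and do not rank different genes, because probe sets differ in response. A difference is given as first group minus second on the log2 scale, with its standard error (SE) from a limma fit over all arrays. That fit holds 1 variance per gene for all 5 groups. The spread within groups outside a comparison thus also enters its SE and p-value. A gene was called when its p-value, adjusted by Benjamini-Hochberg over the 12148 genes tested, was below 0.05. NEP and GNP arrays carry one number in their titles, and NSC and tumor arrays another. Poly-A spike-ins stood at 7.97 ± 0.22 (SD, n = 8) on the former and 6.05 ± 0.25 (n = 11) on the latter. In NEP or GNP against NSC, and in a tumor against its progenitor, the title number and the group cannot be told apart. A shift common to both groups of a title number cancels in NEP against GNP, in NEP tumor against GNP tumor, and in the test that sets one of these differences against the other.

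The label genes were above each array's median of all probe sets, between 2.44 and 2.57, in the groups named for them. Nes, which encodes Nestin, ranged from 5.65 to 6.06 in NEPs and from 3.23 to 4.01 in GNPs. Atoh1, the mouse name of Math1, ranged from 8.77 to 8.96 in GNPs and stood at 2.85, 2.38, 5.67 and 4.90 on NEP arrays 1 to 4. It was also between 8.92 and 8.94 in NSCs. The median of 11 granule neuron progenitor markers on an array averaged 9.89 in GNPs (SD 0.08, n = 4). It averaged 9.87 in NSCs (SD 0.03, n = 3) and 8.54 in NEPs (SD 0.32, n = 4). Prom1, which encodes CD133, ranged from 7.95 to 8.17 in NSCs and from 8.17 to 8.85 in NEPs.

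The promoters of the mitosis genes are shown here because most of these genes moved together between progenitors. RefSeq sequence (GRCm38.p6) from 250 bases before to 50 bases after a transcription start was held for 37 of the 46 genes. The letters TTTGAA, those of the CHR element, on either strand, occurred in 27 of 37 (73%), and in 24 of these within 50 bases of the start. The same letters occurred in 17.9% of all 32851 windows and, counted by gene, in 13.9% of 9804 genes tested that had a window. They occurred in 40.2% of 107 other mitosis genes and in 15.4% of 39 S phase genes. A gene counted when any of its windows held the letters. CCAAT on either strand occurred in 28 of 37 (75.7%), against 37.4% of all windows and 43% of the 9804 genes tested. In other mitosis genes the share was 57% and in S phase genes 64.1%. Matches of the motifs may share a letter where they meet, and a match is a description of letters, not a binding site. The stretches below are the 130 bases before the start, 5′ to 3′ on the gene's strand, with TTTGAA or TTCAAA and CCAAT or ATTGG in capitals. They show the entry kinase, an activator and an enzyme of the anaphase-promoting complex, a spindle motor, the topoisomerase and the proliferation antigen, and last Cdc25b, which moved against the others.
Cdk1, chr10:69352913-69353042, minus strand: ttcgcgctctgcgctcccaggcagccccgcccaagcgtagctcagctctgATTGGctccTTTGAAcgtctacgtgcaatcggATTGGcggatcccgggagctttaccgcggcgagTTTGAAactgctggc
Cdc20, chr4:118437344-118437473, minus strand: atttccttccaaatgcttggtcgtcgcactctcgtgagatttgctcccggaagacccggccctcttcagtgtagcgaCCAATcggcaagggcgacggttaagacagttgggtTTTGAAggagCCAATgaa
Ube2c, chr2:164769799-164769928, plus strand: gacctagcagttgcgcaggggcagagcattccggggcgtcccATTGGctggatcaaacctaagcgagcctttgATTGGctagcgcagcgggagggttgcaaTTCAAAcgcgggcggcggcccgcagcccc
Kif11, chr19:37376252-37376381, plus strand: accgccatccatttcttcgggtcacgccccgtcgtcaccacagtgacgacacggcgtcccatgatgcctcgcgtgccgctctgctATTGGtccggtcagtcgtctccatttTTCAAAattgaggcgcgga
Top2a, chr11:99024190-99024319, minus strand: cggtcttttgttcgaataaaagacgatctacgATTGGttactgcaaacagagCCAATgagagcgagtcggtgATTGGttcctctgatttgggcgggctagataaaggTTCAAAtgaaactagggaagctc
Mki67, chr7:135716380-135716509, minus strand: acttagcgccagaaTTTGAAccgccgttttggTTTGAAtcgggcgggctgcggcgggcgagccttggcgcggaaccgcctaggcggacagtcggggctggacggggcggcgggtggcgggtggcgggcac
Cdc25b, chr2:131186818-131186947, plus strand: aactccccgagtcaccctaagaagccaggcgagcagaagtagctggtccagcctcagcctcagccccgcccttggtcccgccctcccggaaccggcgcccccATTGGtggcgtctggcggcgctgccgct

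In these stretches Cdk1 and Mki67 each hold the CHR letters at 2 places, Top2a holds CCAAT at 3, and Cdc25b holds CCAAT without TTTGAA. The 10 genes whose window lacks TTTGAA were Birc5, Bub1, Ccnb1, Cdc25b, Cenpe, Mad2l1, Ncaph, Nuf2, Nusap1 and Plk4. The median difference between NEPs and GNPs was -0.77 over the 27 genes with these letters and -0.78 over the 9 measured genes without them.

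**Figure D1:**
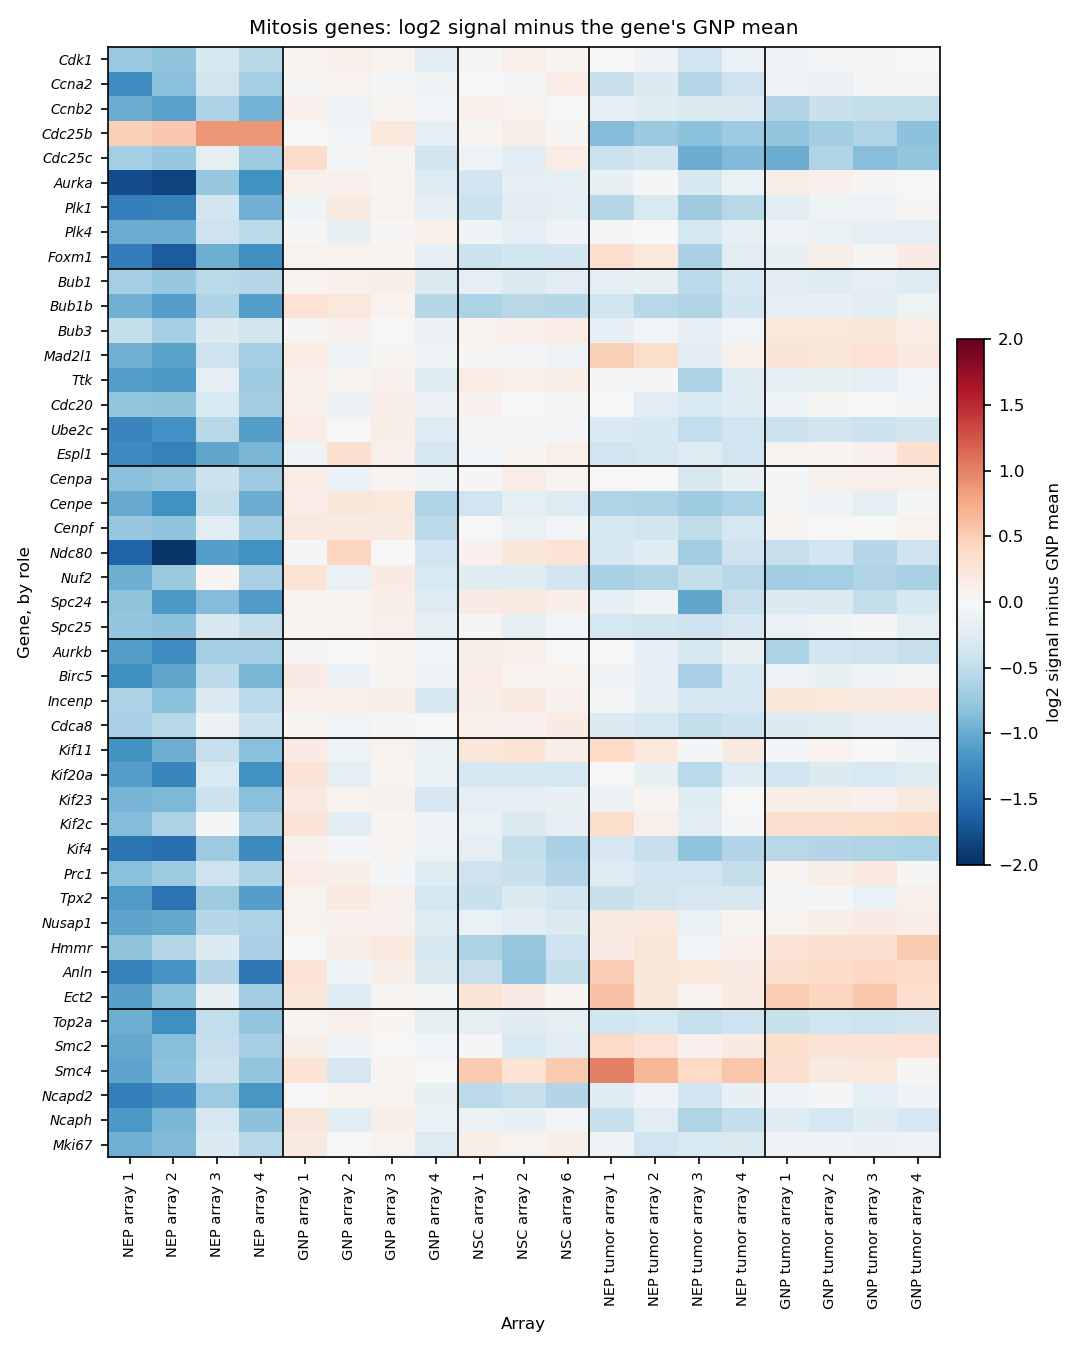
Signal of each of the 45 mitosis genes (rows, grouped by role) on each of the 19 arrays (columns, grouped by cell group), coloured by the log2 signal minus that gene's GNP mean, from blue (lower) through white (0) to red (higher). The 4 NEP columns are blue in nearly every row, palest on array 3, while the Cdc25b row is red there and blue in both tumor groups.

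NEP arrays stood apart from each other. Array 3 had the highest signal of its group for 41 of 45 mitosis genes, while array 1 had the lowest for 21 and array 2 for 22. The median signal over the 45 genes was 8.29, 8.47, 8.94 and 8.58 on NEP arrays 1 to 4, and 9.37, 9.10, 9.28 and 9.14 on GNP arrays 1 to 4. GNP array 4 had the lowest signal of its group for 32 of 45 genes. The typical SD of a mitosis gene within a group, as the median over the 45 genes, was 0.29 in NEPs, 0.17 in GNPs, 0.13 in NEP tumors, 0.06 in NSCs and 0.06 in GNP tumors.

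Markers of other cell types moved with this split. The median of 15 microglia and macrophage markers was 8.99 and 8.98 on NEP arrays 1 and 2, 3.74 and 2.03 on arrays 3 and 4, and from 1.85 to 2.11 in GNPs. All 15 were at or above the array median on arrays 1 and 2, 11 on array 3 and 5 on array 4, against 1 to 3 on the GNP arrays. Their summed signal, as log2, was 13.31 on both of the former, 8.79 and 6.37 on the latter, and from 5.86 to 6.00 in GNPs. For 14 markers of pericytes, fibroblasts and meninges the array medians were 8.88, 8.97, 5.39 and 4.80 in NEPs and from 2.26 to 3.03 in GNPs. The 9 oligodendrocyte lineage markers stood at 8.92, 8.90, 7.28 and 7.06 in NEPs and from 2.65 to 3.42 in GNPs, and 11 endothelial markers at 5.29, 5.75, 3.25 and 4.14 against 2.36 to 2.77. Differentiating neuron markers ran the other way, at 6.64, 6.60, 8.47 and 7.90 in NEPs and from 9.65 to 9.85 in GNPs. The 13 markers of neural stem cells and radial glia did not follow the split, with 9.75, 9.91, 10.06 and 10.27 on NEP arrays 1 to 4 and from 4.74 to 5.94 in GNPs. The part of these cells in the differences below was not tested. Counts of genes called, of groups without overlap and of the lowest group are given also with NEP arrays 3 and 4 alone.

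**Figure D2:**
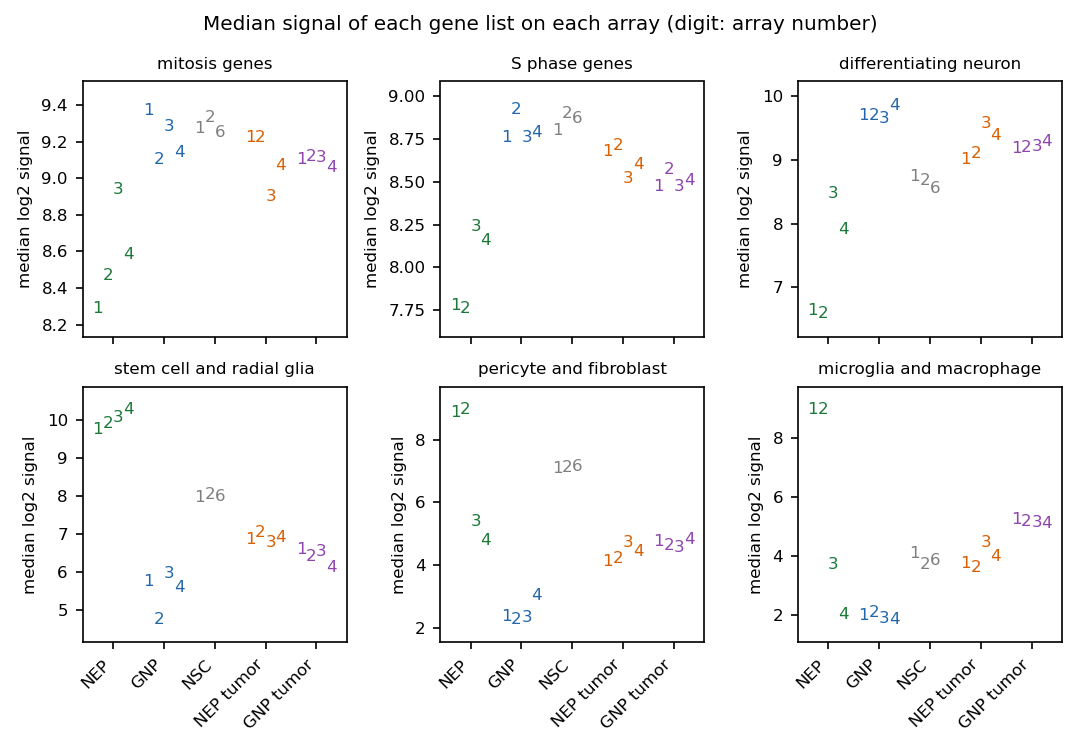
Median log2 signal of 6 gene lists on each array, with the digit giving the array number, the colour and horizontal position the group, and a vertical scale of its own in each panel. Mitosis and S phase medians are lowest on NEP arrays 1 and 2, the arrays with the highest pericyte and microglia medians of the series.

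The first comparison asked how NEPs differ from GNPs. The median difference of the mitosis genes was -0.78 on the log2 scale, with 44 of 45 called lower and 1, Cdc25b, called higher. Over all genes tested, 39.9% were called lower and 29.6% higher, with a median of -0.11. In 35 of 45 genes every NEP array lay below every GNP array, against 32.7% of all genes tested. The other 10 were Cdc25b, Cdc25c, Ttk, Cenpe, Cenpf, Nuf2, Incenp, Kif2c, Hmmr and Ect2. Fewer dividing cells and less of each transcript per cell cannot be told apart in RNA from bulk samples. With NEP arrays 3 and 4 alone, 42 of the 45 genes were called, 41 of them lower, with a median of -0.58 over the members, against 33.2% of all genes lower, and Cdc25c, Nuf2 and Kif2c lost the call. Both of these arrays lay below every GNP array in 35 of 45 genes, against 37.1% of all genes tested. On these arrays the difference was -1.16 for Ndc80, -0.41 for Mki67 and 0.88 for Cdc25b. Leaving out any 1 array left all 45 called. Shares of all genes are not given here for fits that left out 1 array.

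Among the genes of mitotic entry, the largest difference was that of Aurka, the kinase of centrosomes and spindle poles. Its signal was 6.14, 6.08, 7.16 and 6.69 on NEP arrays 1 to 4, and 8.01, 7.998, 7.97 and 7.66 on GNP arrays 1 to 4, so the groups did not overlap. The difference was -1.39 (SE 0.17, adjusted p = 2.28e-06), 2.63-fold. Foxm1, the transcription factor that activates many of these genes, read 5.09, 4.81, 5.50 and 5.24 in NEPs and 6.54, 6.54, 6.52 and 6.28 in GNPs. It stood 1.31 lower on average (SE 0.18, adjusted p = 5.68e-06), again with no overlap. Cdk1 itself had a smaller difference, -0.61 (SE 0.11, adjusted p = 7.73e-05), with 8.99, 8.93, 9.41 and 9.18 in NEPs and 9.78, 9.83, 9.80 and 9.52 in GNPs. Even the highest NEP array was below the lowest GNP array for this kinase. Its partners Ccna2 and Ccnb2 fell by 0.78 and 0.91 from GNPs to NEPs, the polo kinase gene Plk1 by 1.02 and Plk4, which controls centriole duplication, by 0.74.

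The Cdc25 phosphatases went separate ways. Cdc25b read 8.52, 8.59, 8.93 and 8.93 on the NEP arrays and 8.05, 7.99, 8.26 and 7.87 on the GNP arrays, and stood 0.70 higher in NEPs (SE 0.10, adjusted p = 1.06e-05). Every NEP array was above every GNP array, and NEP arrays 3 and 4 held the highest values of this gene in the series. Cdc25c read 6.14, 6.07, 6.65 and 6.10 in NEPs and 7.199, 6.80, 6.88 and 6.44 in GNPs, a difference of -0.59 (SE 0.18, adjusted p = 0.00708). Here array 3 of the NEPs lay above array 4 of the GNPs.

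All 8 genes of the spindle checkpoint and of anaphase were called lower, with differences from -1.15 to -0.45. Espl1, which encodes the protease separase, read 6.78, 6.69, 7.005 and 7.13 in NEPs and 7.96, 8.36, 8.15 and 7.71 in GNPs, 1.15 lower (SE 0.12, adjusted p = 4.04e-07) without overlap. Ube2c, the ubiquitin-conjugating enzyme of the anaphase-promoting complex, read 10.03, 10.13, 10.78 and 10.25 against 11.50, 11.33, 11.46 and 11.09, a difference of -1.05 (SE 0.13, adjusted p = 1.57e-06). For Cdc20, which activates that complex, the NEP arrays gave 9.84, 9.82, 10.34 and 9.94 and the GNP arrays 10.73, 10.51, 10.76 and 10.52. NEPs were thus below GNPs on every array for both, and the difference in Cdc20 was -0.65 (SE 0.10, adjusted p = 3.48e-05). Bub1b, a checkpoint protein of the kinetochore, read 7.66, 7.52, 8.002 and 7.52 in NEPs and 8.91, 8.84, 8.70 and 8.05 in GNPs, where array 4 lay apart from the others. It was 0.95 lower in NEPs (SE 0.15, adjusted p = 2.75e-05). The other checkpoint genes fell by 0.64 (Bub1), 0.45 (Bub3), 0.78 (Mad2l1) and 0.79 (Ttk).

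Kinetochore genes were lower in NEPs in 7 of 7 cases. Ndc80, the namesake of the complex that grips microtubules, showed the largest difference of all 45 genes. It read 5.29, 4.95, 5.79 and 5.68 in NEPs and 6.87, 7.32, 6.88 and 6.49 in GNPs, a gap with no overlap and a difference of -1.46 (SE 0.17, adjusted p = 1.28e-06), 2.76-fold. Its partner Nuf2 read 8.08, 8.31, 9.11 and 8.40 in NEPs and 9.32, 8.91, 9.22 and 8.75 in GNPs. Here NEP array 3 fell within the GNP range, and the difference was -0.58 (SE 0.16, adjusted p = 0.00496). The complex's other subunits fell by 0.99 (Spc24) and 0.59 (Spc25). Cenpe, a kinesin that carries chromosomes along the spindle, read 6.76, 6.55, 7.29 and 6.78 in NEPs and 7.92, 8.001, 7.98 and 7.17 in GNPs, with overlap at GNP array 4. It differed by -0.92 (SE 0.16, adjusted p = 9.36e-05). The centromeric histone gene Cenpa fell by 0.70 and the kinetochore gene Cenpf by 0.62.

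The chromosomal passenger complex corrects faulty attachments and later sets the site of division. Its kinase gene Aurkb read 7.67, 7.54, 8.11 and 8.12 in NEPs and 8.82, 8.79, 8.82 and 8.73 in GNPs. GNP arrays were all close together and above every NEP array, and the difference was -0.93 (SE 0.11, adjusted p = 1.87e-06). Birc5 (survivin) fell by 0.93, Incenp by 0.56 and Cdca8 (borealin) by 0.44, the smallest difference of the called genes.

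All 11 genes of spindle motors and cytokinesis were lower in NEPs, with a median difference of -0.82. Kif4, a motor that travels with chromosomes, read 4.90, 4.84, 5.63 and 5.08 in NEPs and 6.45, 6.32, 6.41 and 6.25 in GNPs, 1.24 lower (SE 0.15, adjusted p = 1.14e-06) without overlap. Anln, which encodes the contractile ring scaffold anillin, read 7.18, 7.35, 7.94 and 7.09 against 8.79, 8.44, 8.63 and 8.24, a difference of -1.14 (SE 0.16, adjusted p = 7.03e-06). The bipolar spindle motor Kif11 read 7.92, 8.15, 8.66 and 8.29 in NEPs and 9.28, 9.03, 9.19 and 8.99 in GNPs, and differed by -0.87 (SE 0.12, adjusted p = 1.06e-05). For these 3 genes the groups were separate on every array. Hmmr, a protein of spindle poles, read 6.29, 6.53, 6.83 and 6.44 in NEPs and 7.10, 7.21, 7.29 and 6.78 in GNPs, where NEP array 3 reached past GNP array 4, and its difference was -0.57 (SE 0.13, adjusted p = 0.000629). The spindle assembly factor Tpx2 fell by 1.10, the cytokinesis kinesins Kif20a and Kif23 by 0.98 and 0.77, the microtubule binder Nusap1 by 0.82, the exchange factor Ect2 by 0.69, the midzone protein Prc1 by 0.65 and the depolymerising kinesin Kif2c by 0.55.

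Of the genes of chromosome structure, all 6 were lower. Top2a, the topoisomerase that untangles sister chromatids, read 10.42, 10.17, 10.90 and 10.63 in NEPs and 11.46, 11.49, 11.43 and 11.20 in GNPs, 0.87 lower (SE 0.11, adjusted p = 3.23e-06). Mki67, which encodes the proliferation antigen Ki-67, read 10.18, 10.26, 10.87 and 10.59 against 11.32, 11.15, 11.22 and 10.88. NEPs were below GNPs on every array for both genes, by the narrowest margin for Mki67, whose difference was -0.67 (SE 0.13, adjusted p = 0.000175). The condensin core genes were Smc2, with 9.35, 9.52, 9.91 and 9.69 in NEPs and 10.49, 10.29, 10.37 and 10.31 in GNPs, and Smc4, with 9.48, 9.72, 10.11 and 9.76 against 10.81, 10.22, 10.60 and 10.54. They fell by 0.75 (SE 0.10, adjusted p = 6.51e-06) and 0.78 (SE 0.15, adjusted p = 0.000193). Their partners Ncapd2 and Ncaph fell by 1.13 and 0.80.

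**Figure D3:**
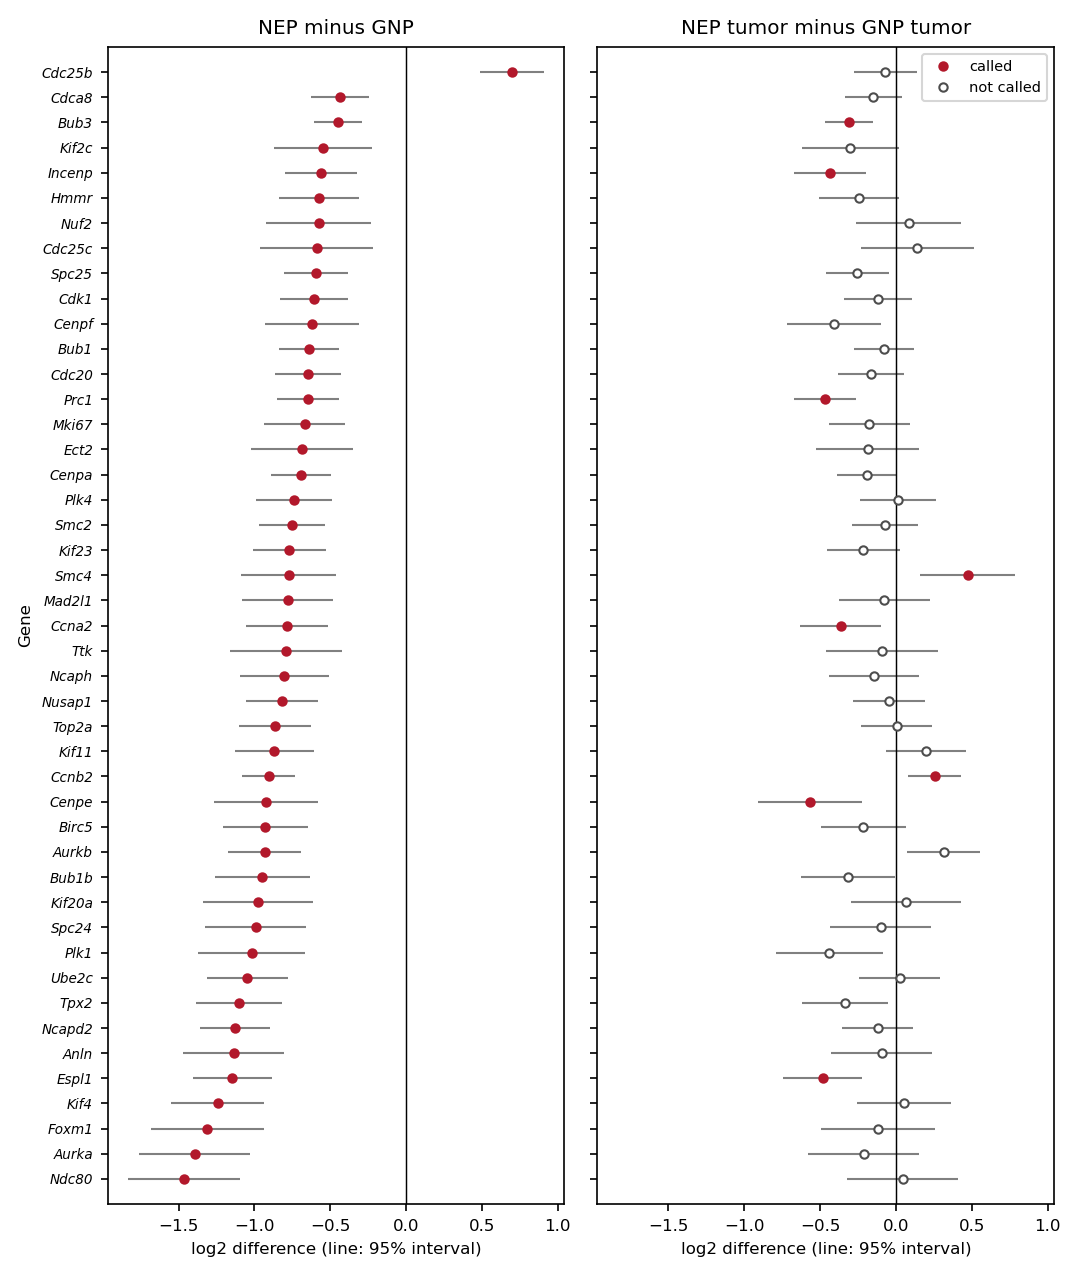
Log2 difference of each of the 45 mitosis genes, NEP minus GNP at left and NEP tumor minus GNP tumor at right, in the order of the left panel, with lines for the 95% interval of the fit and filled points for called genes. At left all points are filled and all but Cdc25b lie below 0, while at right 8 are filled and most intervals include 0.

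Other genes of mitosis, from lists that hold none of the 45, were also mostly lower in NEPs. Among the 33 tested genes of centromere, kinetochore and checkpoint, 32 were called lower and 0 higher at an adjusted p below 0.05, with a median of -0.96. Among spindle, motor and cytokinesis genes it was 27 of 33 lower and 1 higher, and among entry and exit regulators 23 of 28 lower and 0 higher. Condensin and cohesin gave 10 of 14 lower. The subunits of the anaphase-promoting complex gave 6 of 13 lower and 1 higher, with a median of -0.16, against 39.9% and 29.6% of all genes. The largest differences were those of Sgo1, which protects centromeric cohesin (6.58 ± 0.54 in NEPs against 8.47 ± 0.15 in GNPs, SD, n = 4 each), and E2f7, a repressor of the E2F family (6.72 ± 0.41 against 8.33 ± 0.10). The called exceptions were Cit, the citron kinase of cytokinesis, 0.61 higher in NEPs (SE 0.12, adjusted p = 0.000277), and Anapc10, 0.36 higher (SE 0.10, adjusted p = 0.00406). Of 46 S phase genes, which copy DNA before mitosis, 46 were lower, with a median of -0.81. With NEP arrays 3 and 4 alone, the genes called lower were 30 of 33 for centromere, kinetochore and checkpoint, 22 of 33 for spindle and motors, 20 of 28 for entry and exit, 10 of 14 for condensin and cohesin, 6 of 13 for the anaphase-promoting complex and 42 of 46 for S phase. Over all genes 33.2% were then lower and 27.1% higher. The anaphase-promoting complex also had 2 genes called higher, with a median of -0.15, and spindle and motors had 1.

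NEPs were then compared with NSCs. The median difference of the mitosis genes was -0.69, with 39 of 45 called lower and Cdc25b again called higher, by 0.63 (SE 0.11, adjusted p = 9.29e-05). Over all genes tested 27.6% were called lower and 30.9% higher, with a median of 0.02. This comparison shares its NEP arrays with the one above. The NSC arrays held 8.10, 8.16 and 8.06 for Cdc25b, all below the NEPs. With NEP arrays 3 and 4 alone 35 of the members were called, 34 lower against 23.9% of all genes, without Cdc25c, Cenpe, Cenpf, Kif20a and Anln. With any 1 array left out 39 to 44 were called, against 40 in the main fit, which called 58.4% of all genes. Cdc25c lost its call without NEP array 1, 2 or 4 or NSC array 6.

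Ndc80 again had the largest difference. Its NSC signal was 6.98, 7.13 and 7.16, and the difference was -1.66 (SE 0.19, adjusted p = 1.18e-06), 3.16-fold. Smc4 read 11.06, 10.83 and 11.06 in NSCs and differed by -1.22 (SE 0.16, adjusted p = 6.15e-06). Espl1 read 7.99, 8.09 and 8.14 and differed by -1.17 (SE 0.13, adjusted p = 1.23e-06). In all 3 genes every NSC array lay above every NEP array. The 5 genes not called were Bub1b, Nuf2, Kif2c, Prc1 and Hmmr. Hmmr was at 6.47, 6.33 and 6.68 in NSCs, within the NEP range, with a difference of 0.03 and a 95% interval from -0.25 to 0.31. Outside the 45 genes, the chromatin kinase gene Haspin and the mitotic exit gene Cdca2 fell by 2.01 and 2.05, while Zwint, a kinetochore adaptor, was 0.60 higher in NEPs (SE 0.09, adjusted p = 2.64e-05) and the microtubule polymerase gene Ckap5 0.41 higher (SE 0.11, adjusted p = 0.00501).

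GNPs and NSCs were compared next. Of the 45, 6 were called higher in GNPs and 1 lower, with a median of 0.06, against 23.2% higher and 13.1% lower over all genes tested and a median of 0.06. The higher genes were Bub1b, Kif4, Prc1, Hmmr, Anln and Ncapd2, 4 of them from the 11 motor and cytokinesis genes. Hmmr stood 0.60 higher (SE 0.14, adjusted p = 0.00222) with no overlap between groups. Bub1b, at 7.996, 8.07 and 8.05 in NSCs, stood 0.58 higher in GNPs (SE 0.16, adjusted p = 0.00887), and GNP array 4 overlapped the NSC arrays. Anln read 8.06, 7.73 and 8.05 in NSCs, below every GNP array, and stood 0.58 higher in GNPs (SE 0.17, adjusted p = 0.0134), a call lost without NSC array 2. Smc4 was the gene called lower, by 0.44 (SE 0.16, adjusted p = 0.039), and it lost the call in 5 of 7 fits that left out 1 array (GNP array 2, 3 or 4, or NSC array 1 or 6), as did Kif4 (GNP array 1, 2 or 3, or NSC array 2 or 6). None of the entry genes was called, and for Cdk1 the interval of the difference ran from -0.29 to 0.19. When each gene took the mean of all its probe sets, 14 members were called, 8 higher and 6 lower, against 38.9% of all genes. Of the 7 calls, 5 were among them.

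Outside the list, Zwint was 1.09 higher in GNPs than in NSCs (SE 0.09, adjusted p = 1.3e-07) and Arhgef39, an exchange factor, 1.00 higher (SE 0.16, adjusted p = 0.000119). Pttg1, which encodes securin, the inhibitor of separase, fell by 1.09 from NSCs to GNPs and Cdca2 by 0.64. Of 11 granule neuron progenitor markers, 1 was called higher in GNPs than in NSCs and 10 were not called. In NEPs against NSCs, 11 of these 11 markers were called lower in NEPs. On the NSC arrays the medians of pericyte, fibroblast and meningeal markers were 7.09, 7.10 and 7.15, against at most 3.03 on the GNP arrays. The part of granule neuron progenitors or of these other cells in the NSC values was not tested.

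**Figure D4:**
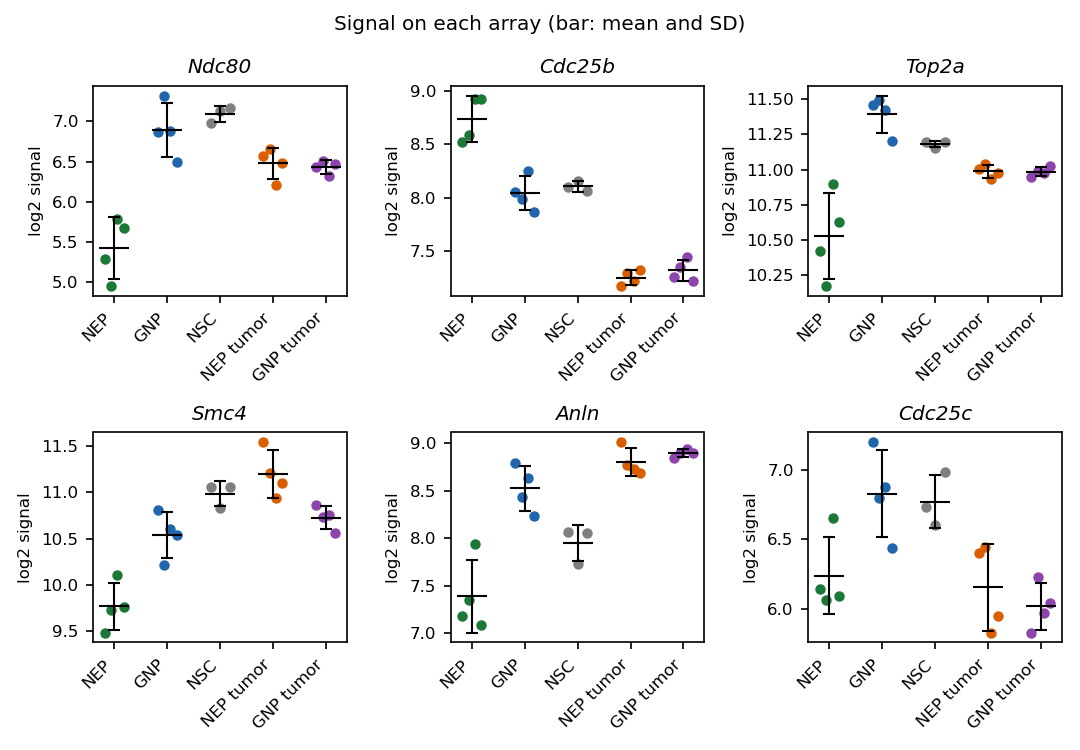
Log2 signal of 6 genes on each array (points), by group, with the group mean and SD (bars) and a vertical scale of its own per gene. Ndc80 and Top2a are lowest in NEPs, Cdc25b is highest in NEPs and lowest in the tumors, and Smc4 reaches its highest values in NEP tumors.

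The question of the tumor comparison was how alike the tumors of either origin are. Of the 45 genes, 2 were called higher in NEP tumors and 6 lower, with a median of -0.12, against 15.5% higher and 8.1% lower over all genes tested and a median of 0.05. The genes called lower were Ccna2, Bub3, Espl1, Cenpe, Incenp and Prc1, and those called higher were Ccnb2 and Smc4. Cenpe read 7.16, 7.14, 7.05 and 7.14 on NEP tumor arrays 1 to 4 and 7.72, 7.70, 7.59 and 7.75 on GNP tumor arrays 1 to 4, with no overlap and a difference of -0.56 (SE 0.16, adjusted p = 0.0191). Espl1 read 7.64, 7.71, 7.79 and 7.65 in NEP tumors and 8.11, 8.10, 8.13 and 8.39 in GNP tumors, 0.48 lower (SE 0.12, adjusted p = 0.00972). Prc1 fell by 0.47 (SE 0.10, adjusted p = 0.00245), Incenp by 0.43, Ccna2 by 0.36 and Bub3 by 0.31. Smc4 read 11.54, 11.21, 10.94 and 11.10 in NEP tumors and 10.86, 10.73, 10.76 and 10.56 in GNP tumors, 0.47 higher (SE 0.15, adjusted p = 0.0285), and Ccnb2 stood 0.26 higher (SE 0.08, adjusted p = 0.0338).

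Of the 8 calls, 3 were lost in fits that left out 1 array. Ccna2 and Ccnb2 each lost theirs in 7 of 8 fits that left out 1 array, Ccna2 keeping it only without NEP tumor array 2 and Ccnb2 only without NEP tumor array 3. Smc4 lost its call without GNP tumor array 2, 3 or 4 or NEP tumor array 1 or 2. Counts fell to 5 of the members without GNP tumor array 2, 3 or 4 or NEP tumor array 1, from 8 in the main fit, which called 23.6% of all genes. Ccna2, Bub3, Cenpe and Smc4 lost theirs when each gene took the mean of its probe sets. With NEP tumor arrays 3 and 4 alone 3 members were called (16.8% of all genes), and with arrays 1 and 2 alone 4 (20.7%). Cenpe, Ccna2 and Ccnb2 lost the call in both cases, Espl1 and Smc4 with arrays 3 and 4, and Incenp with arrays 1 and 2. A fit on the tumor arrays only called 14 members, against 30.8% of all genes tested. NEP tumor array 3 was the lowest of its group for 36 of 45 genes. A second quantile normalization called 1 higher and 9 lower, against 21.6% of all genes called in either direction.

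Most of the 45 did not pass the test between tumors, and the 95% intervals given here are those of the probe set used. Top2a read 11.002, 11.04, 10.93 and 10.98 in NEP tumors and 10.95, 10.99, 10.97 and 11.02 in GNP tumors, with a difference of 0.00 and an interval from -0.23 to 0.24. Mki67 read 11.07, 10.75, 10.85 and 10.86 against 11.08, 11.07, 11.03 and 11.04, an interval from -0.44 to 0.09. These proliferation markers thus overlapped between tumors. Ube2c read 11.04, 11.02, 10.86 and 10.95 against 10.92, 10.97, 10.92 and 10.97 (interval from -0.24 to 0.29). Cdc20 read 10.63, 10.43, 10.32 and 10.39 against 10.53, 10.66, 10.65 and 10.60 (interval from -0.39 to 0.05). Smc2 read 10.74, 10.65, 10.45 and 10.54 against 10.72, 10.65, 10.64 and 10.65 (interval from -0.29 to 0.15). Cdk1 had an interval from -0.34 to 0.10 and Aurka one from -0.58 to 0.15. A difference of the size seen between the progenitors lies outside the interval for both. Yet the tumor groups did not overlap for Aurka, nor for Plk1, Bub1b, Cenpf, Spc25, Aurkb, Kif23, Tpx2 and Hmmr, all not called. Of these, Aurkb stood higher in NEP tumors and the others lower. The share of all genes without overlap between tumors is not given here. With the mean over a gene's probe sets the difference was -0.26 for Top2a and 0.16 for Smc2, each outside the interval above.

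Among other mitosis genes, 9 of 121 were called higher in NEP tumors and 12 lower. Pttg1 fell by 1.49 (8.85 ± 0.85 in NEP tumors against 10.34 ± 0.08 in GNP tumors, SD, n = 4 each), and Iqgap3, a scaffold of the cell cortex, by 0.93. Of the S phase genes 8 of 46 were called higher in NEP tumors and 0 lower at an adjusted p below 0.05, against 15.5% higher and 8.1% lower over all genes. Pole2, a subunit of a replicative polymerase, was 0.74 higher (SE 0.10, adjusted p = 6.01e-05) and Gins2, of the replicative helicase, 0.71 higher (SE 0.11, adjusted p = 0.000165). Microglia and macrophage markers had array medians from 3.61 to 4.48 in NEP tumors and from 5.11 to 5.25 in GNP tumors, and their part in these values was not tested.

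Whether the difference between origins was the same in progenitors as in tumors was tested directly as the tumor difference minus the progenitor difference. It was called above 0 for 34 of 45 genes and below 0 for Cdc25b, with a median of 0.66, against 36.7% above and 25.2% below over all genes tested and a median of 0.15. Ndc80 had the largest value, 1.51 (SE 0.25, adjusted p = 6.23e-05), followed by Kif4 with 1.29 (SE 0.21, adjusted p = 5.12e-05), Smc4 with 1.25 (SE 0.21, adjusted p = 8.21e-05), Aurkb with 1.25, Foxm1 with 1.19 and Aurka with 1.18. For these 6 genes the difference between tumors was nearer to 0 than the difference between progenitors. For Kif4 the tumor arrays read 6.02, 5.89, 5.56 and 5.77 (NEP tumor) and 5.80, 5.76, 5.75 and 5.72 (GNP tumor), overlapping where the progenitors did not. Cdc25b gave -0.77 (SE 0.14, adjusted p = 0.000202). The 10 genes not called were Ccna2, Bub3, Cenpe, Cenpf, Incenp, Cdca8, Kif2c, Prc1, Hmmr and Ect2, which include 5 of the 6 genes called lower in NEP tumors than in GNP tumors. With NEP arrays 3 and 4 alone 25 of the members were called, 24 above 0 against 32.4% of all genes, and Cdk1, Cdc25c, Plk1, Bub1b, Ttk, Cdc20, Nuf2, Spc25, Ncaph and Mki67 lost the call. With any 1 array left out 31 to 41 were called, against 35 in the main fit, which called 61.9% of all genes. Plk1 and Spc25 each lost the call in 11 of 16 such fits, Mki67 in 4 (GNP array 1, NEP array 1 or 2, NEP tumor array 1) and Ttk in 1 (NEP array 2).

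NEP tumors were then set against NEPs, a comparison that shares its NEP arrays with those above. Of the 45 genes, 39 were called higher in NEP tumors and 1 lower, with a median of 0.60, against 36.2% higher and 32.6% lower over all genes tested and a median of 0.05. In 24 of 45 every tumor array was above every NEP array, against 28.7% of all genes tested. Smc4 rose by 1.43 (SE 0.15, adjusted p = 2.27e-07), Anln by 1.41 (SE 0.16, adjusted p = 5.61e-07), Aurka by 1.23, Foxm1 by 1.23 and Kif11 by 1.06. Anln read 9.01, 8.77, 8.73 and 8.68 in NEP tumors, all above the NEPs. Cdc25b fell by 1.48 (SE 0.10, adjusted p = 9.05e-10), to 7.17, 7.30, 7.22 and 7.32, and no tumor array came near the NEP arrays. Cdc25c, Cenpe, Cenpf, Nuf2 and Cdca8 were not called, and Nuf2 had a difference of 0.00 with an interval from -0.34 to 0.35. With NEP arrays 3 and 4 alone 30 of the members were called, 29 higher against 31.2% of all genes, and both arrays lay below every tumor array in 24 of 45, against 33.4% of all genes. Here Ccna2, Plk1, Bub1, Bub1b, Ttk, Spc25, Incenp, Prc1, Ncaph and Mki67 lost the call. Markers of other cells also differed. Of 13 pericyte, fibroblast and meningeal markers tested 11 were called lower in NEP tumors and 1 higher. Of 11 endothelial markers 9 were lower and 1 higher, and of 13 radial glia markers 10 were lower and 1 higher. Of 14 microglia markers 3 were called lower. Of 16 neuron markers 13 were called higher and 3 lower. The part of these cells in these values was not tested.

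Calls in this comparison leaned on single arrays for 6 genes. Spc25 lost its call in 6 of 8 fits that left out 1 array, that is without NEP array 1 or 2 or any NEP tumor array. Plk1 and Ncaph lost theirs without NEP array 1 or 2 or NEP tumor array 2, Ccna2 without NEP array 1 or NEP tumor array 2, Incenp without NEP array 2 or NEP tumor array 1, and Prc1 without NEP array 1 or NEP tumor array 1. For 3 genes a further, dimmer probe set gave a call of opposite sign. It fell by 0.95 for Cenpa, by 0.52 for Incenp and by 0.36 for Ncapd2, from NEP means of 3.23, 3.49 and 4.43, whereas the probe sets used rose by 0.57, 0.34 and 0.91. When each gene took the mean of its probe sets, Cenpa, Incenp, Prc1 and Top2a lost the call and Cenpe and Cenpf gained one, with 70.8% of all genes called. Outside the 45 genes Cdca2 rose by 2.11 and the kinetochore scaffold gene Knl1 by 1.93, while Cit fell by 0.97 and Pttg1 by 0.89.

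GNP tumors set against GNPs moved in both directions. Of the 45 genes, 4 were called higher and 10 lower, with a median of -0.08, against 18.5% higher and 31.4% lower over all genes tested and a median of -0.08. Cdc25c fell by 0.81 (SE 0.18, adjusted p = 0.00108), to 5.83, 6.23, 5.97 and 6.04, below every GNP array. Cdc25b fell by 0.72 (SE 0.10, adjusted p = 1.43e-05), to 7.26, 7.35, 7.45 and 7.23, again with no overlap. Both mitotic phosphatase genes were therefore lower in these tumors, whereas Cdk1 and Foxm1 were not called and had intervals from -0.25 to 0.20 and from -0.34 to 0.41. Nuf2 fell by 0.66 (SE 0.16, adjusted p = 0.00305), to 8.35, 8.37, 8.45 and 8.40. Kif4, Ccnb2, Aurkb, Ndc80, Top2a, Ube2c and Cdca8 were also called lower, by 0.60, 0.50, 0.47, 0.46, 0.41, 0.40 and 0.23. Genes called higher were Ect2 by 0.45, Hmmr by 0.36, Smc2 by 0.30 and Bub3 by 0.20.

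Of the 14 calls, 6 were lost in fits that left out 1 array. Cdca8 lost its call in 8 of 8 fits that left out 1 array, Ndc80 in 7 (every array but GNP array 4) and Bub3 in 6 (every array but GNP array 2 and GNP tumor array 4). Ect2 lost it without GNP array 2 or 4 or GNP tumor array 1 or 3, Smc2 without GNP array 2 or 4 or GNP tumor array 1, and Hmmr without GNP array 4 or GNP tumor array 4. The count of members called was 9 without GNP tumor array 1, against 14 in the main fit, which called 49.8% of all genes. With a second quantile normalization the count was 6 higher and 9 lower, against 47.7% of all genes called in either direction. Another probe set of Hmmr was called lower, by 0.40, against 0.36 higher for the one used. When each gene took the mean of its probe sets, Hmmr and Top2a lost the call and 7 other members gained one, with 51.1% of all genes called. In the other lists, 27 of 46 S phase genes were called lower and 0 higher at an adjusted p below 0.05, with a median of -0.30. The scaffold gene Sapcd2 fell by 1.20 and the transcription factor gene Mybl2 by 1.08, whereas Pttg1 rose by 1.15 and the spindle pole gene Aspm by 0.59. Of markers of other cells, 8 of 14 for microglia and 8 of 13 for pericytes, fibroblasts and meninges were called higher in GNP tumors. For radial glia 9 of 13 were called higher and 3 lower, and for the oligodendrocyte lineage 5 of 7 higher. The part of these cells in these values was not tested.

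**Figure D5:**
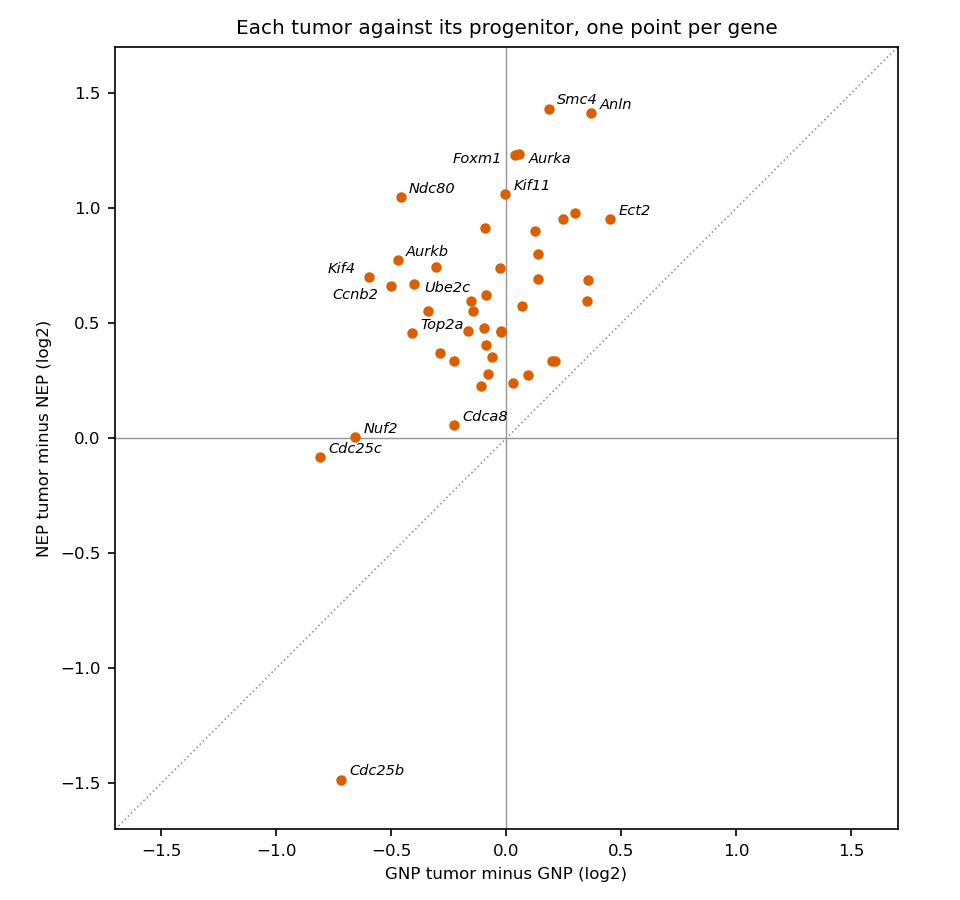
Log2 difference of each of the 45 mitosis genes between tumor and progenitor, GNP tumor minus GNP on the horizontal axis and NEP tumor minus NEP on the vertical axis, with 0 on each axis as a solid line and equal values as a dotted line. Nearly all points lie above the dotted line and most lie above 0 on the vertical axis, while Cdc25b lies below it, at -0.72 and -1.48.

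Across the 5 groups, the lowest mean was that of NEPs for 41 of the 45 genes. The exceptions were Cdc25b, lowest in NEP tumors, Cdc25c and Nuf2, lowest in GNP tumors, and Hmmr, lowest in NSCs. The highest mean was shared out among GNPs (15 genes), GNP tumors (15) and NSCs (13), with Smc4 highest in NEP tumors and Cdc25b highest in NEPs. With NEP arrays 3 and 4 alone, NEPs were lowest for 40, and Cdca8 joined Cdc25b as lowest in NEP tumors. Among groups other than NEPs, NSCs and GNPs differed in 7 of 45 genes (36.3% of all genes tested), the tumors in 8 (23.6%) and GNP tumors and GNPs in 14 (49.8%). Of the 45 genes, 30 had further probe sets, 50 of them bright enough to test. Of these, 43 were called lower in NEPs than in GNPs and 0 higher at an adjusted p below 0.05. Between tumors, 7 of the 50 were called higher in NEP tumors and 6 lower. Only 2 of those shared the direction of a called gene. In GNPs against NSCs, 11 were called higher and 10 lower, and 5 shared the direction of a called gene. In both of these comparisons 0 went against a called gene.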

How the data were processed

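The deposited table holds log2 signals of 45101 probe sets on 19 arrays, which the submitters' processing notes credit to RMA and Affymetrix Expression Console as used by the authors. Per the labels' protocols, 100 ng of Trizol-extracted RNA was amplified and labelled per array. Background correction, any centring and tool versions are not given in the sources used here. No values were normalized again in the main analysis.

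Control probe sets (64) and those with several symbols (932) or none (9160) were left out. Of a gene's probe sets, the brightest on average over the 19 arrays stood for it, and 12148 of 18193 genes at or above the array median on at least 3 arrays were tested. Group means of all 5 groups were fitted in limma 3.58.1 (R 4.3.3), with Benjamini-Hochberg adjustment over all genes tested and 7 comparisons. No pair of arrays held identical values (0 of 171 pairs). The scripts were tested on simulated data. Any of the 45 genes could be named. Values by array were given for Cdk1, Bub1b, Cenpe, Aurkb, Kif11, Top2a and Mki67, for the 3 largest called differences of each comparison, and, in NEP against GNP and between tumors, for up to 6 of the brightest genes that were not called or went against most others. Of other mitosis and S phase genes, the 2 largest called differences in each direction of a comparison were named. Members and lists were chosen with earlier results of these data known.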

Additional observations from a re-analysis of the deposited data

Results flagged for a closer look

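In 13 of 180 pairs of gene and group (groups of 4 arrays), 1 array lay far from the other 3 by Dixon's test, where chance gives about 1 in 20. GNP array 4 was the low array in 8 of them, with log2 signals of 9.523 for Cdk1, 7.656 for Aurka, 6.284 for Foxm1, 8.572 for Ttk, 7.171 for Cenpe, 9.277 for Cenpf, 9.891 for Incenp and 9.973 for Nusap1. NEP array 3 was the high array for Cdc25c (6.651) and Cenpf (9.597). GNP tumor array 4 was low for Bub3 (10.332) and high for Espl1 (8.387), and GNP tumor array 1 was high for Smc2 (10.718).

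The difference between origins was unequal in progenitors and tumors for 35 of 45 genes. This is the limma test of the tumor difference minus the progenitor difference, which called 61.9% of all genes tested. Among the genes of mitotic entry the values were 0.489 for Cdk1, 1.161 for Ccnb2, -0.765 for Cdc25b, 0.728 for Cdc25c, 1.181 for Aurka, 0.578 for Plk1, 0.750 for Plk4 and 1.193 for Foxm1. For the checkpoint and anaphase they were 0.563 for Bub1, 0.632 for Bub1b, 0.705 for Mad2l1, 0.696 for Ttk, 0.482 for Cdc20, 1.071 for Ube2c and 0.662 for Espl1. Kinetochore genes gave 0.505 for Cenpa, 1.510 for Ndc80, 0.661 for Nuf2, 0.890 for Spc24 and 0.339 for Spc25. Passenger complex genes gave 1.246 for Aurkb and 0.711 for Birc5. For spindle motors and cytokinesis they were 1.068 for Kif11, 1.048 for Kif20a, 0.555 for Kif23, 1.295 for Kif4, 0.767 for Tpx2, 0.776 for Nusap1 and 1.042 for Anln. Genes of chromosome structure gave 0.868 for Top2a, 0.680 for Smc2, 1.247 for Smc4, 1.008 for Ncapd2, 0.659 for Ncaph and 0.494 for Mki67. With NEP arrays 3 and 4 alone, Cdk1, Cdc25c, Plk1, Bub1b, Ttk, Cdc20, Nuf2, Spc25, Ncaph and Mki67 lost the call. That left 25 genes called, against 56.8% of all genes tested. The median signal of microglia and macrophage markers differed between NEP arrays 1 and 2 and the other NEP arrays, as given above. Its part in the values of this test was not tested.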

How the results depend on the processing

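Of the counts of members called in 7 comparisons, those of NEP against GNP, NEP against NSC, the test of unequal differences and GNP tumor against GNP stayed within 1.5 times of the reported count under the mean over a gene's probe sets, no filter, a stricter filter, a second quantile normalization, a fit on only the groups compared, a variance trend and the replicate block where it applied, and with any one array left out ran from 45 to 45, 39 to 44, 31 to 41 and 9 to 13. GNP against NSC gave 14 of the members when a gene took the mean over its probe sets, against 38.9% of all genes. With 1 array left out it gave 5 to 9. NEP tumor against GNP tumor gave 14 with only the groups compared (30.8% of all genes), and 5 to 8 with 1 array left out. In alternatives chosen after seeing the data, it gave 3 with NEP tumor arrays 3 and 4 only (16.8%). With arrays 1 and 2 only, also chosen after seeing the data, it gave 4 (20.7%). NEP tumor against NEP gave 22 with the replicate block, against 49.8% of all genes, and 35 to 43 with 1 array left out. It gave 32 with only the groups compared (57.8% of all genes). The block lost the calls of 18 genes. They were Cdk1, Ccna2, Plk1, Plk4, Bub1, Bub3, Ttk, Cdc20, Spc24, Spc25, Birc5, Incenp, Kif20a, Kif2c, Prc1, Top2a, Ncaph and Mki67. Arrays share only a number: same-numbered arrays correlated between -0.182 and 0.116 in their deviations. The replicate block gave 43 of the members for NEP against GNP (54.2% of all genes) and 11 for the tumors (25.8%). It gave 32 for the test of unequal differences (58.1%) and 20 for GNP tumor against GNP (57.5%).

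Values of the genes given by array changed sign in 17 cases, only where the difference had not been called, except Hmmr in GNP tumor against GNP (-0.007 with the mean over probe sets). Between the tumors, Top2a gave -0.260 with that mean, -0.044 with a second quantile normalization, -0.029 with NEP tumor arrays 3 and 4 only and -0.013 to 0.022 with one array left out. Ndc80 gave -0.048 with the second quantile normalization, -0.088 with arrays 3 and 4 only and -0.013 to 0.137 with one array left out. Kif4 gave -0.059, -0.096 and -0.019 to 0.136 under the same settings, Ube2c -0.022 and -0.039 under the first pair. Smc2 gave 0.158 with the mean over probe sets and 0.031 with arrays 1 and 2 only. The cause was not tested. The number of arrays limits the precision.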

Other observations

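Other genes of mitosis and replication also differed between origins unequally in progenitors and tumors, tested as the tumor difference minus the progenitor difference. Of 121 other mitosis genes, 85 were called above 0 and 3 below, with a median of 0.65. Of 46 S phase genes 45 were called above 0, with a median of 1.01. Over all genes tested 36.7% were above and 25.2% below, with a median of 0.15. With NEP arrays 3 and 4 alone 67 other mitosis genes were above and 5 below, and 40 S phase genes were above. The shares of all genes were then 32.4% above and 24.4% below. The largest values were those of Sapcd2, which encodes a regulator of spindle orientation, at 2.16 (SE 0.28, adjusted p = 6.3e-06) and Haspin, the kinase that marks chromatin for the passenger complex, at 1.95 (SE 0.19, adjusted p = 2.37e-07). Pttg1 (securin) stood at -2.03 (SE 0.39, adjusted p = 0.000295) and Cit at -0.69 (SE 0.17, adjusted p = 0.00233). Pttg1 varied among the NEP tumor arrays (SD 0.85, n = 4) more than among the GNP tumor arrays (SD 0.08, n = 4), and that difference in spread was not tested.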
